A study of Mus musculus with 12 samples.

Results

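MYC and its relatives were followed in ATDC5 cells, a mouse line of teratocarcinoma origin that is used as a model of chondrocytes, after knockdown of the RNA helicase DDX5 and after inflammatory cytokines. The 10 genes were chosen by symbol as the MYC, MAX and MXD network and are 10 of the 46731 genes in the table: *Myc*, *Mycn*, *Max*, *Mxd1*, *Mxi1*, *Mxd3*, *Mxd4*, *Mnt*, *Mga* and *Mlx*. All cells had been transduced with lentivirus. The shRNA-NC cells carried a control hairpin and the shRNA-*Ddx5* cells a hairpin against *Ddx5*, as a stable line screened with puromycin. Each line was kept for 6 h without stimulation, called medium here, or with IL-1β at 5 ng/ml together with TNF-α at 25 ng/ml, with 3 libraries in each of the 4 groups. The labels describe 1 line for each hairpin, so that an effect of *Ddx5* loss and any other difference between the lines cannot be told apart.

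MYC is a transcription factor of the basic helix-loop-helix leucine zipper class that binds DNA only as a dimer with MAX, at a short element called the E-box, and drives genes of ribosome production, nucleotide synthesis and the cell cycle. The MXD proteins (MXD1, MXI1, MXD3 and MXD4), MNT and MGA compete for the same partner and, as dimers with MAX, repress genes at the same element, the MXD proteins and MNT through the SIN3 and histone deacetylase corepressor. MLX is the MAX-like partner of the Mondo proteins, which respond to sugars, and also pairs with some MXD proteins and MNT. *Myc* RNA is short-lived and is known to respond to growth factors and cytokines in many cells, including chondrocytes.

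Expression was measured as FPKM, fragments scaled by gene length and library size, from 14119199 to 19276520 fragments per library. The replicate 3 of shRNA-NC in medium was the shallowest library. *Ddx5* FPKM fell to 32.3% of the shRNA-NC mean in medium and to 32.1% with cytokines. Of 10 chondrocyte markers 4 reached 1 FPKM in at least 3 libraries, and *Acan*, *Comp*, *Matn1*, *Hapln1*, *Col9a1* and *Sox6* stayed under 1 FPKM everywhere. Of 7 fibroblast markers 5 reached that level, and their summed FPKM moved with the knockdown, from 527 to 540 in shRNA-NC and 2059 to 2164 in shRNA-*Ddx5* libraries in medium and from 245 to 405 and 1547 to 1791 with cytokines. The summed chondrocyte markers ranged from 40.1 to 45.2 and 31.5 to 34.3 FPKM in medium and from 13.0 to 18.3 and 10.6 to 10.7 FPKM with cytokines. The 4 epithelial markers summed to at most 0.116 FPKM, the 4 endothelial ones to at most 0.151 and the 5 leukocyte ones to at most 10.6. Of 6 markers of embryonal carcinoma cells 5 stayed under 1 FPKM everywhere, and 1 reached that level in at least 3 libraries. The 6 summed to 8.81 to 14.8 FPKM in shRNA-NC and 13.99 to 20.7 FPKM in shRNA-*Ddx5* libraries in medium. With cytokines the sums were lower, 4.95 to 5.74 and 4.65 to 5.43 FPKM. The part of these shifts in the results was not tested, and in bulk RNA fewer cells of a type and less RNA per cell cannot be told apart.

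The E-box was looked for in the members' own promoters, since MYC and MAX dimers and their repressing counterparts read this element. RefSeq promoter windows of GRCm38.p6, from 250 bases before to 50 after a gene start, were found for 9 members in 11 windows, all but *Myc*. The palindrome CACGTG, the same on both strands, lay in 4 windows, those of *Max*, *Mlx*, *Mnt* and *Mxd4*. It was in 7.15% of all 32851 windows and in 10.2% of the 11300 windows matched to tested genes. The stretches around it are shown 5′ to 3′ on the strand of the gene, with the E-box in capitals:
Max (chr12:76962237-76962291, minus strand): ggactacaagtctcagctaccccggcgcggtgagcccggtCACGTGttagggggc
Mlx (chr11:101087210-101087295, plus strand): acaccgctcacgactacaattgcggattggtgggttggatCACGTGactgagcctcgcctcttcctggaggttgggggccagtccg
Mnt (chr11:74830761-74830846, plus strand): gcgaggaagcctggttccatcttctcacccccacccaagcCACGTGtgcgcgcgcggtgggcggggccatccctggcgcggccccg
Mxd4 (chr5:34187884-34187960, minus strand): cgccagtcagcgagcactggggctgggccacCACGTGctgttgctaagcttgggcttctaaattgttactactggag
Counted from the gene start, the first base of the E-box was at -3 in *Max*, -40 in *Mlx*, -123 in *Mnt* and -219 in *Mxd4*. A second pattern was searched on both strands, because DDX5 is known to unwind G-quadruplexes, the folded structures that such runs can form. It consists of 4 runs of at least 3 G, separated by 1 to 7 bases. The *Col2* promoter G-quadruplex that the study reports DDX5 to unfold has shorter G runs, which this pattern does not match. The study also cites work on DDX5 unfolding such a structure in the *Myc* promoter, for which no window was found. It lay in 3 of the 11 members' windows, those of *Mxd1* and *Mxd3* and 1 of the 3 of *Mxi1*, and in 18.6% of all windows and 27.6% of those matched to tested genes. These matches describe letters in the windows, and whether a protein binds there was not measured.

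To describe the network as it stood, levels per gene length were first compared within the shRNA-NC cells in medium. *Myc*, on the plus strand of chromosome 15 from 61857190 to 61862210 in the GRCm39 coordinates of the table, was the most abundant member at 104 ± 12.3 FPKM (SD, n = 3). Next in order of mean level came *Mxd4* at 43.8 ± 11.1, *Max* at 21.2 ± 0.655, *Mxi1* at 18.7 ± 1.26, *Mxd3* at 15.1 ± 1.08, *Mga* at 11.98 ± 0.486, *Mlx* at 6.20 ± 0.776, *Mnt* at 6.13 ± 2.21 and *Mxd1* at 3.53 ± 0.568 FPKM. The ranges of *Mlx* and *Mnt* overlapped in these libraries, and those of *Mnt* and *Mxd1* did as well. This order depends on the gene lengths used for FPKM, which ran from 1179 bases for *Mxd4* to 27336 bases for *Mga*. *Mycn*, the paralog of *Myc* in early neural and mesenchymal progenitors, had 2 fragments in replicate 1 of shRNA-*Ddx5* in medium and 0 in the other 11 libraries. It lay under the floor of 3 fragments per library and was not tested. The other 9 members passed the filter of 1 FPKM in at least 3 libraries, which 12368 genes passed.

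**Figure D1:**
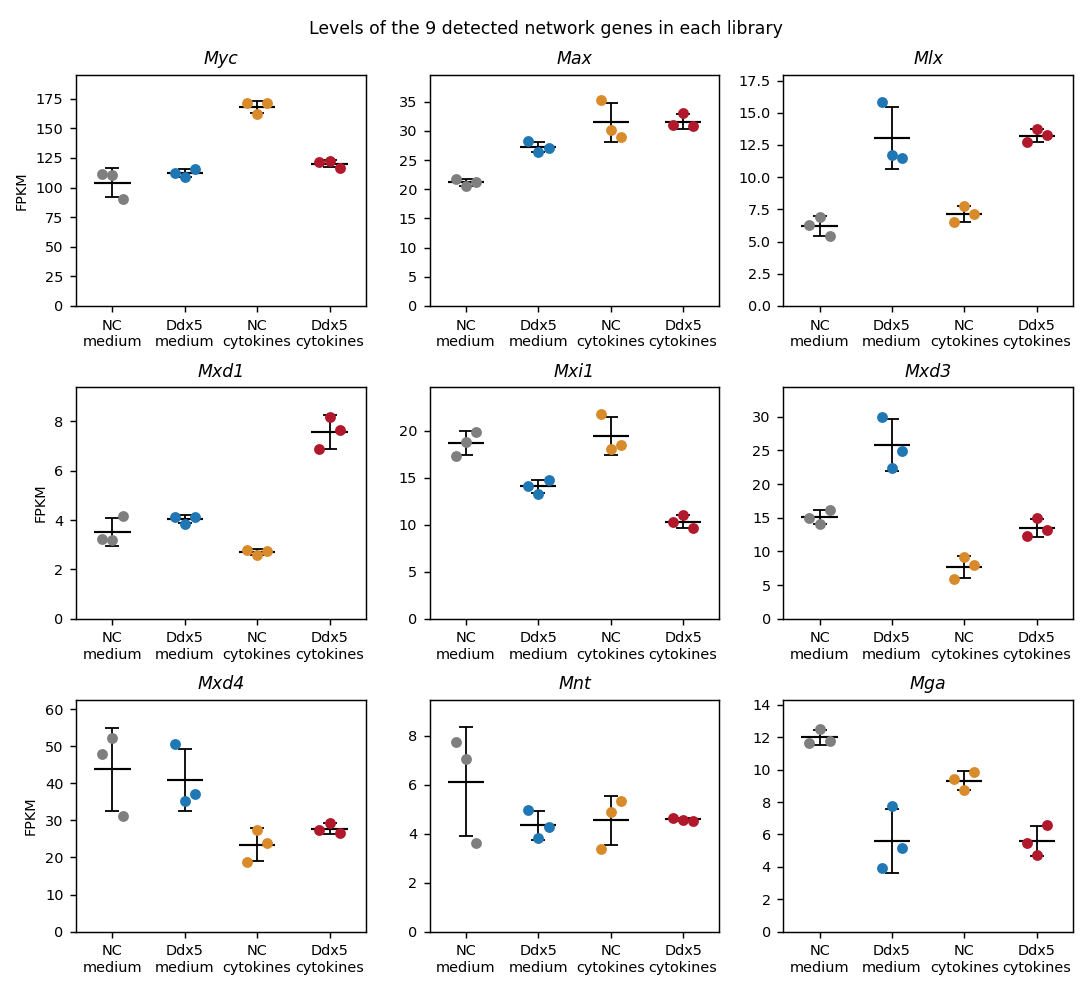
FPKM of 9 network genes in the 12 libraries, with 1 panel per gene and 1 column per group (NC, control hairpin; Ddx5, hairpin against Ddx5). Points are libraries in order of replicate number, the line is the mean and the bar the SD (n = 3); the shRNA-NC libraries with cytokines stand highest for Myc and the shRNA-Ddx5 libraries with cytokines highest for Mxd1.

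Differences were tested as log2(FPKM + 1) with limma over all 12368 genes, in 1 fit of the 12 libraries, with p-values adjusted after Benjamini and Hochberg (Benjamini-Hochberg) and called under 0.05. The scale understates changes of low genes. The knockdown was compared in each medium, the cytokines in each line, and the interaction asked whether the knockdown effect was different with cytokines. These comparisons share groups, so their values are given side by side and are not independent of each other.

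*Myc*, the activating member, rose with cytokines in the control line and was lower in the knockdown line under cytokines, with little separation between the lines in medium. In shRNA-NC cells it was 112, 111 and 89.9 FPKM in medium and 171, 162 and 171 FPKM with cytokines. In shRNA-*Ddx5* cells it was 112, 109 and 116 FPKM in medium and 121, 122 and 117 FPKM with cytokines. The 3 shRNA-NC libraries with cytokines thus lay above every other library, while the 2 lines overlapped in medium. The cytokines raised *Myc* 1.62-fold in shRNA-NC cells, a log2 difference of 0.69 (standard error 0.09, adjusted p = 0.00014, limma with Benjamini-Hochberg adjustment). In shRNA-*Ddx5* cells the difference was 0.09 (95% confidence interval -0.10 to 0.29, adjusted p = 0.466, limma), and it became -0.07 under quantile normalization. Each cytokine library of that line nevertheless lay above each of its medium libraries in FPKM. With cytokines the knockdown line held 71.4% of the control level (log2 difference -0.48, adjusted p = 0.001, limma). In medium the knockdown difference was 0.12 (interval -0.08 to 0.31, adjusted p = 0.3, limma), and quantile normalization turned it to -0.17, also short of the threshold. Without replicate 3 of shRNA-NC in medium, the lowest of its group for *Myc*, it was 0.016. The interaction was -0.60 (standard error 0.12, interval -0.87 to -0.33, adjusted p = 0.0135, limma), and it stayed past the threshold in every alternative fit, including those without each library in turn.

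*Max*, the partner that MYC and its antagonists share, rose after knockdown in medium and with cytokines in the control line. It was 21.8, 20.5 and 21.2 FPKM in shRNA-NC and 28.2, 26.4 and 27.1 FPKM in shRNA-*Ddx5* cells in medium. With cytokines it was 35.3, 30.1 and 29.0 FPKM in shRNA-NC and 31.0, 33.0 and 30.8 FPKM in shRNA-*Ddx5* cells. The lines were apart in medium and overlapped with cytokines. The knockdown difference was 0.35 in medium (1.29-fold, adjusted p = 0.0041, limma) and 0.01 with cytokines (interval -0.17 to 0.19, adjusted p = 0.935, limma), the latter on either side of 0 with the scaling. The cytokine difference was 0.55 in shRNA-NC cells (1.49-fold, adjusted p = 0.0004, limma) and 0.20 in shRNA-*Ddx5* cells (interval 0.03 to 0.38, adjusted p = 0.0804, limma). In each line the cytokine libraries lay above the medium libraries without overlap. The interaction of *Max* was -0.34 and missed the threshold (adjusted p = 0.0934, limma).

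Of the repressing partners, *Mxd1* had the largest fold difference in any of the comparisons, a rise in knockdown cells under cytokines. MXD1 is known as the form induced when cells stop dividing and mature. It was 3.23, 3.18 and 4.19 FPKM in shRNA-NC and 4.13, 3.85 and 4.12 FPKM in shRNA-*Ddx5* cells in medium. Under cytokines the values were 2.81, 2.58 and 2.75 FPKM in shRNA-NC and 6.87, 8.20 and 7.65 FPKM in shRNA-*Ddx5* cells. The shRNA-*Ddx5* libraries with cytokines lay above every other library. With cytokines the knockdown raised *Mxd1* 2.79-fold (log2 difference 1.21, standard error 0.10, adjusted p = 4.6e-06, limma), and in medium the difference was 0.16 (interval -0.06 to 0.37, adjusted p = 0.207, limma). Without replicate 3 of shRNA-NC in medium, which held the highest value of its group, the difference in medium was 0.26 and passed the threshold. The cytokines raised *Mxd1* 1.88-fold in shRNA-*Ddx5* cells (0.77, adjusted p = 0.00013, limma). In shRNA-NC cells the difference was -0.28 (adjusted p = 0.0456, limma), a call that was lost without the filter, under quantile normalization, with voom weights and in the fit of those 6 libraries alone, and in 9 of the 12 fits without a library (-0.18 without replicate 3 of shRNA-NC in medium). The interaction was 1.05 (standard error 0.14, adjusted p = 0.001, limma), opposite in sign to that of *Myc*.

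*Mxi1*, also called *Mxd2*, fell after knockdown in both media. It was 17.3, 18.8 and 19.9 FPKM in shRNA-NC and 14.1, 13.3 and 14.7 FPKM in shRNA-*Ddx5* cells in medium. After cytokines its level was 21.7, 18.0 and 18.5 FPKM in shRNA-NC and 10.3, 11.01 and 9.63 FPKM in shRNA-*Ddx5* cells. The lines did not overlap in either medium. The knockdown line held 75.3% of the control mean in medium (log2 difference -0.38, adjusted p = 0.0045, limma) and 53.1% with cytokines (-0.85, adjusted p = 2.4e-05, limma). The cytokines lowered it in shRNA-*Ddx5* cells (-0.41, adjusted p = 0.0053, limma), and in shRNA-NC cells the difference was 0.05 (interval -0.14 to 0.25, adjusted p = 0.677, limma), and changed sign with the scaling. The interaction of -0.47 was at the edge of the threshold (adjusted p = 0.0449, limma) and was lost with a pseudocount of 0.1, without the filter and under quantile normalization, as well as in 9 of the 12 fits without a library. *Mxd1* and *Mxi1*, both MXD genes, thus had opposite signs in the knockdown with cytokines.

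*Mxd3*, the MXD form known from dividing cells in S phase, rose after knockdown and fell with cytokines, in each setting. It was 15.0, 14.1 and 16.2 FPKM in shRNA-NC and 30.0, 22.4 and 24.9 FPKM in shRNA-*Ddx5* cells in medium. In the cytokine groups it was 5.89, 9.14 and 7.996 FPKM in shRNA-NC and 12.3, 15.0 and 13.1 FPKM in shRNA-*Ddx5* cells. The groups of each of the 4 comparisons were apart. The knockdown difference was 0.73 in medium (1.71-fold, adjusted p = 0.0019, limma) and 0.75 with cytokines (1.75-fold, adjusted p = 0.0015, limma). The cytokine difference was -0.91 in shRNA-NC (adjusted p = 0.0007, limma) and -0.88 in shRNA-*Ddx5* cells (adjusted p = 0.00087, limma). The interaction was 0.02 with an interval of -0.43 to 0.48. *Mxd3* overlaps 103 bases of *Prelid1*, a mitochondrial gene on the opposite strand with 4322 to 8445 fragments per library, and the strand of the reads was not stated. *Prelid1* itself differed by 0.66 and 0.72 after knockdown in medium and with cytokines, and by -0.07 and -0.01 with cytokines in shRNA-NC and shRNA-*Ddx5* cells.

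*Mxd4*, the repressing member with the highest FPKM and known from resting and differentiated cells, was lower with cytokines. It was 47.9, 52.3 and 31.2 FPKM in shRNA-NC and 50.6, 35.2 and 37.1 FPKM in shRNA-*Ddx5* cells in medium. With cytokines it was 18.8, 27.5 and 24.0 FPKM in shRNA-NC and 27.3, 29.3 and 26.6 FPKM in shRNA-*Ddx5* cells. The 6 cytokine libraries lay below the 6 medium libraries, and the lines overlapped in each medium. In shRNA-NC cells the cytokine difference was -0.86 (53.6% of the medium mean, adjusted p = 0.0066, limma). In shRNA-*Ddx5* cells it was -0.53 (interval -0.96 to -0.10) and missed the threshold (adjusted p = 0.0687, limma), though it passed under quantile normalization, in the fit of those 6 libraries alone, with the length and GC correction and without replicate 3 of shRNA-NC in medium. The knockdown difference was -0.08 in medium (interval -0.51 to 0.36, and -0.30 without replicate 3 of shRNA-NC) and 0.25 with cytokines (interval -0.19 to 0.68).

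*Mnt*, a widely expressed MAX partner that opposes MYC in dividing cells, passed no test in the fit of all libraries. It was 7.73, 7.04 and 3.61 FPKM in shRNA-NC and 4.98, 3.81 and 4.25 FPKM in shRNA-*Ddx5* cells in medium. Under cytokines the values were 3.39, 4.89 and 5.33 FPKM in shRNA-NC and 4.66, 4.56 and 4.53 FPKM in shRNA-*Ddx5* cells. Replicate 3 of shRNA-NC in medium lay under both others of its group. With that library the knockdown difference in medium was -0.37 (interval -0.84 to 0.10, adjusted p = 0.184, limma) and the cytokine difference in shRNA-NC cells -0.33 (adjusted p = 0.261, limma). Without it these were -0.65 and -0.62 and both passed, so that 1 library decides both calls.

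*Mga*, which carries a T-box in addition to its MAX-binding domain and belongs to a Polycomb complex, fell after knockdown in both media. It was 11.6, 12.5 and 11.8 FPKM in shRNA-NC and 3.92, 7.77 and 5.13 FPKM in shRNA-*Ddx5* cells in medium. After cytokines its level was 9.42, 8.73 and 9.83 FPKM in shRNA-NC and 5.44, 4.73 and 6.56 FPKM in shRNA-*Ddx5* cells. Each shRNA-*Ddx5* library lay below each shRNA-NC library. The knockdown line held 46.8% of the control mean in medium (log2 difference -1.01, standard error 0.17, adjusted p = 0.0007, limma) and 59.8% with cytokines (-0.66, adjusted p = 0.0095, limma). The cytokine difference was -0.33 in shRNA-NC (adjusted p = 0.166, limma), past the threshold in the fit of those 6 libraries alone, and 0.03 in shRNA-*Ddx5* cells (adjusted p = 0.933, limma). The gene model of *Mga* in the table, on chromosome 2 from 119702974 to 119800610 (GRCm39), is 27336 bases long, and the longest 10% of the tested genes had a median log2 difference of -0.21 in medium and -0.15 with cytokines after knockdown, against 0.03 and 0.01 over all tested genes. After correction for length and GC content, chosen once the data had been seen, the differences of *Mga* were -0.65 and -0.38, both still past the threshold, and its cytokine difference in shRNA-NC cells was -0.047, short of it.

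*Mlx*, on the plus strand of chromosome 11 from 100977538 to 100983033 (GRCm39), rose after knockdown in both media. It was 6.25, 6.95 and 5.40 FPKM in shRNA-NC and 15.8, 11.7 and 11.5 FPKM in shRNA-*Ddx5* cells in medium. In the cytokine groups it was 6.50, 7.80 and 7.11 FPKM in shRNA-NC and 12.7, 13.7 and 13.2 FPKM in shRNA-*Ddx5* cells. All 6 shRNA-*Ddx5* libraries lay above all 6 shRNA-NC libraries. The knockdown difference was 0.95 in medium (2.10-fold, adjusted p = 0.0001, limma) and 0.81 with cytokines (1.85-fold, adjusted p = 0.0003, limma). With cytokines against medium it differed by 0.18 in shRNA-NC (interval -0.09 to 0.45) and 0.03 in shRNA-*Ddx5* cells (interval -0.23 to 0.30). *Mlx* overlaps 1796 bases of *Psmc3ip*, a gene of meiotic recombination on the opposite strand with 121 to 484 fragments per library. The overlap is of gene spans, not of exons alone. The strand of the reads was not stated, so whether strand told the reads of the 2 genes apart is not known. *Psmc3ip* also differed after knockdown, by 0.72 in medium (adjusted p = 0.0086, limma) and 0.84 with cytokines (adjusted p = 0.0037, limma).

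**Figure D2:**
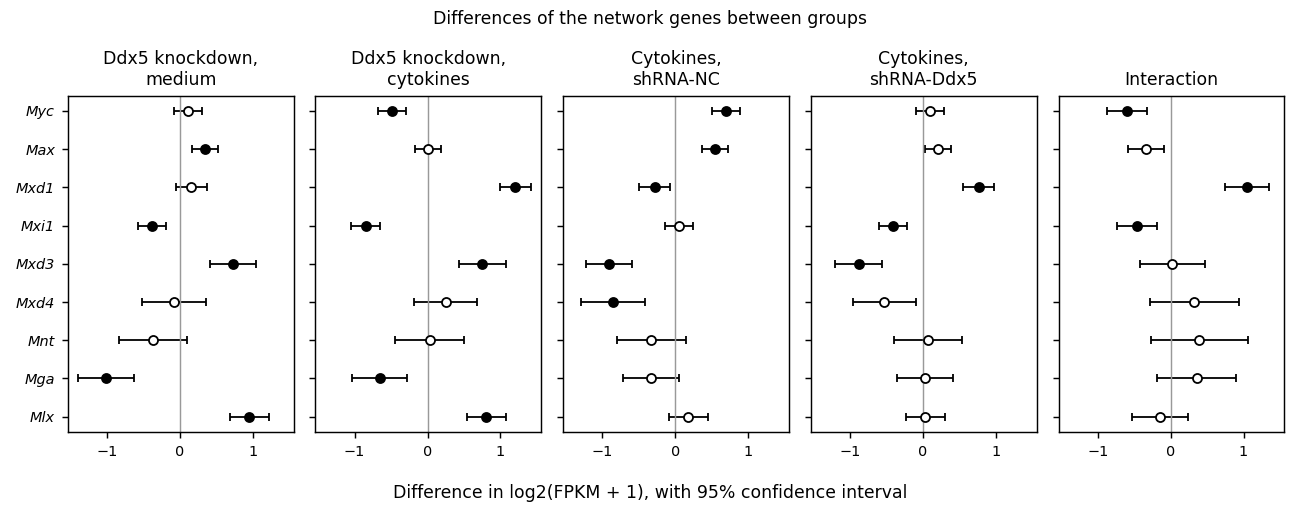
Differences in log2(FPKM + 1) of the 9 tested network genes in the 5 comparisons, each with its 95% confidence interval from limma (n = 3 libraries per group); filled points passed the threshold of 0.05 on the adjusted p. Mxd1 and Mxi1 lie on opposite sides of 0 for the knockdown with cytokines, and Mxd3 lies right of 0 in both knockdown panels and left of 0 in both cytokine panels.

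Over the network, 5 of the 9 tested members passed after knockdown in medium, 3 up and 2 down, where 47.0% of all tested genes passed, 25.3% up and 21.7% down. With cytokines 6 passed, 3 up and 3 down (45.6% of all genes, 23.5% up and 22.1% down). The cytokines moved 5 members in shRNA-NC cells, 2 up and 3 down (33.8% of all genes, 18.6% up and 15.2% down), and 3 in shRNA-*Ddx5* cells, *Mxd1* up and *Mxi1* and *Mxd3* down (27.0% of all genes, 13.5% in each direction). The interaction passed for 3, *Mxd1* up and *Myc* and *Mxi1* down (8.21% of all genes, 3.46% up and 4.75% down). The median log2 difference of the 9 members was 0.12 and 0.03 for the knockdown in medium and with cytokines, and -0.28 and 0.03 for the cytokines in shRNA-NC and shRNA-*Ddx5* cells.

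The levels of the repressing partners other than *Mga* were summed in each library as a description of RNA, not of protein. *Mga*, left out of the sum, was 11.98 and 5.61 FPKM in the control and knockdown lines in medium. With cytokines it was 9.33 and 5.58 FPKM. The sum of *Mxd1*, *Mxi1*, *Mxd3*, *Mxd4* and *Mnt* in medium was 87.2 ± 10.7 FPKM in shRNA-NC and 89.2 ± 13.1 FPKM in shRNA-*Ddx5* cells (SD, n = 3). With cytokines it was 57.8 ± 4.79 and 63.7 ± 3.82 FPKM. Divided by *Myc* in the same library, it was 0.838 ± 0.0219 and 0.794 ± 0.113 in medium and 0.344 ± 0.0379 and 0.530 ± 0.0258 with cytokines. The ratio was thus lower in the 6 cytokine libraries than in the 6 medium libraries, and with cytokines the ranges of the lines were apart, 0.308 to 0.384 in shRNA-NC and 0.506 to 0.558 in shRNA-*Ddx5* cells. *Mxd4* made up 40.3% to 49.6% of the sum in the 4 group means. The mean share of *Mxd1* was 4.15% and 4.57% in the control and knockdown lines in medium, 4.73% in the control line with cytokines and 11.9% in the knockdown line with cytokines.

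**Figure D3:**
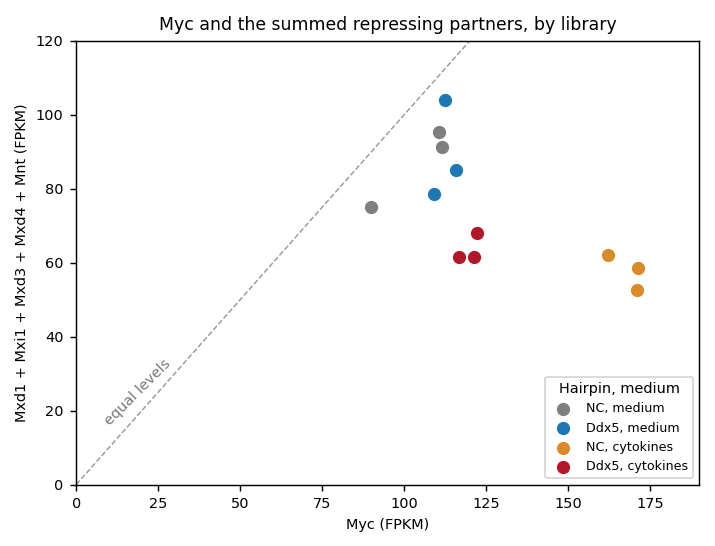
FPKM of Myc (horizontal) against the summed FPKM of Mxd1, Mxi1, Mxd3, Mxd4 and Mnt (vertical) in the 12 libraries, coloured by group; the dashed line marks equal levels. Cytokine libraries of both lines lie lower than medium libraries, and those of shRNA-NC also lie furthest right.

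Genes around the network were described next, in lists of known partners and targets. Of MYC and Mondo relatives outside the members, *Mlxip* (MondoA, a partner of MLX) rose after knockdown, from 7.78 ± 0.676 to 11.4 ± 0.751 FPKM in medium (SD, n = 3, log2 difference 0.50, adjusted p = 0.002, limma) and from 9.13 ± 1.31 to 12.6 ± 0.440 FPKM with cytokines (0.44, adjusted p = 0.0048, limma). *Mlxip* and *Mlx*, the partners in that dimer, thus both rose after knockdown. *Mlxipl* was listed at 0 in all libraries. *Mycl* stayed under the filter, with means of 0.242 FPKM in the control line and 0.0190 FPKM in the knockdown line in medium, and of 0.891 and 0.277 FPKM with cytokines. The MondoA and MLX targets *Txnip*, an inhibitor of glucose uptake, and *Arrdc4* did not both pass in any comparison. In medium their knockdown differences were -0.22 and 0.23, neither past the threshold. With cytokines these were 0.20 for *Txnip*, short of the threshold, and 0.36 for *Arrdc4*, which rose (adjusted p = 0.0115, limma). *Txnip* fell with cytokines in shRNA-NC cells (-0.38, adjusted p = 0.0224, limma), a call lost without replicate 3 of shRNA-NC in medium.

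Of the 12 SIN3 and histone deacetylase genes, all tested, 4 rose and 1 fell after knockdown in medium, where 47.0% of all tested genes passed, and 5 rose and 3 fell with the length and GC correction. *Sap18* rose by 1.13, from 10.3 ± 1.40 to 23.9 ± 4.96 FPKM, *Hdac1* by 0.56, *Rbbp7* by 0.42 and *Hdac2* by 0.36, while *Sin3a* fell by 0.25. With cytokines *Sap18* (0.79), *Hdac1* (0.64) and *Rbbp7* (0.33) rose after knockdown and *Brms1* fell (-0.36), 4 of 12 genes against 45.6% of all genes. The cytokines raised *Sap30* (0.63), *Brms1* (0.57) and *Sap18* (0.46) and lowered *Sin3a* (-0.22) in shRNA-NC cells, where 33.8% of all genes passed. They raised *Ing1* (0.24) in shRNA-*Ddx5* cells, where 27.0% of all genes passed. By limma 0 passed the interaction, where 8.21% of all tested genes did. Voom also gave 0, and 2 passed at an unadjusted p under 0.05. These splits depend on the scaling, and under quantile normalization they were 2 up and 2 down after knockdown in either medium, and 3 up and 2 down and 0 up and 3 down with cytokines in shRNA-NC and shRNA-*Ddx5* cells.

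Of 9 genes of the Polycomb complex that holds MGA, 0 were called lower after knockdown in medium by limma or by voom (1 at an unadjusted p under 0.05 in each), and *E2f6* (0.64), *L3mbtl2* (0.59) and *Tfdp1* (0.28) rose there, where 25.3% of all tested genes rose and 21.7% fell. With cytokines *L3mbtl2* (0.77) and *Tfdp1* (0.23) rose after knockdown and *Rybp* (-0.95) and *E2f6* (-0.33) fell (23.5% and 22.1% of all genes). *Rybp*, which stimulates the ubiquitin ligase of the complex, was 17.4 ± 4.47 FPKM in shRNA-NC and 8.32 ± 0.191 FPKM in shRNA-*Ddx5* cells with cytokines. *E2f6*, *Wdr5* and *Pcgf6* rose with cytokines in shRNA-NC cells, by 0.55, 0.33 and 0.32, where 33.8% of all genes passed. In shRNA-*Ddx5* cells *Rnf2* rose by 0.51, and *Rybp* and *E2f6* fell by 0.96 and 0.42, where 27.0% of all genes passed. Both *Rybp* (-1.16, adjusted p = 0.0039, limma) and *E2f6* (-0.96, adjusted p = 0.0034, limma) passed the interaction, as did 8.21% of all tested genes. Scaled to the sum of fragments, with the length and GC correction or without replicate 3 of shRNA-NC in medium, 1 gene fell after knockdown in medium, and under quantile normalization 1 rose and 2 fell after knockdown with cytokines and likewise with cytokines in shRNA-NC cells.

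Of 16 MYC coactivators and binding partners, 2 rose and 6 fell after knockdown in medium, and 5 rose and 4 fell with cytokines, where 47.0% and 45.6% of all tested genes passed. With the length and GC correction the splits were 4 up and 4 down and 3 up and 5 down. *Trrap*, the scaffold of histone acetylases that MYC recruits, fell from 27.8 ± 1.81 to 14.9 ± 1.19 FPKM in medium (log2 difference -0.86, adjusted p = 0.00019, limma) and by 0.56 with cytokines. *Ccnt1*, the cyclin of the elongation kinase, fell by 0.66 in both media, and *Aurka*, a kinase that shields MYC proteins from breakdown, rose by 0.68 and 0.46. *Smarcb1* was the other gene that rose in medium, by 0.37. The cytokines raised *Wdr5*, *Ruvbl1* and *Actl6a* and lowered *Trrap* in shRNA-NC cells, where 33.8% of all tested genes passed. They raised *Ruvbl2*, *Ruvbl1* and *Actl6a* and lowered *Aurka* in shRNA-*Ddx5* cells, where 27.0% of all tested genes passed. Neither limma nor voom called any in the interaction, where 0 had an unadjusted p under 0.05 and 8.21% of all tested genes passed. Quantile normalization gave 1 up and 7 down and 1 up and 4 down for the knockdown in medium and with cytokines, and 0 up and 3 down and 2 up and 3 down for the cytokines in shRNA-NC and shRNA-*Ddx5* cells.

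Of 13 genes of MYC protein turnover, 4 rose and 4 fell after knockdown in medium, where 47.0% of all tested genes passed. With cytokines 1 rose and 5 fell after knockdown, where 45.6% of all genes passed, 23.5% up and 22.1% down. *Skp2*, a ubiquitin ligase subunit for MYC, rose from 20.9 ± 1.43 to 41.9 ± 3.04 FPKM in medium (0.97, adjusted p = 5.5e-05, limma). Its interaction of -0.72 was the only one of the list past the threshold (adjusted p = 0.0192, limma), where 8.21% of all genes passed. *Fbxw7*, another such subunit, fell by 0.54 in medium and by 0.53 with cytokines, and *Usp7* by 0.62 and 0.73. *Fbxo32* fell by 0.90 in medium. In shRNA-NC cells the cytokines raised *Usp36*, *Skp2* and *Set* and lowered *Huwe1* and *Fbxo32*, where 33.8% of all genes passed. In shRNA-*Ddx5* cells they raised *Usp36* and lowered *Gsk3b*, where 27.0% of all genes passed. With quantile normalization the list had 1 up and 5 down for the knockdown in medium and 0 up and 5 down with cytokines. For the cytokines in each line it had 1 up and 2 down.

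Of 10 genes whose proteins are known to bind the *Myc* promoter, 3 rose and 3 fell after knockdown in medium, and 3 rose and 2 fell with cytokines, where 47.0% and 45.6% of all tested genes passed. *Nme1*, of the nucleoside diphosphate kinases, rose by 0.82 and 0.78. *Dhx36*, a helicase that like DDX5 unwinds G-quadruplexes, fell from 21.3 ± 1.73 to 14.3 ± 3.95 FPKM in medium (-0.57, adjusted p = 0.0114, limma). *Ncl*, the nucleolar protein nucleolin, fell by 0.41 in medium, *Sp1* fell by 0.46 and 0.28, and *Cnbp* fell by 0.53 with cytokines. *Puf60* rose by 0.32 and 0.57 and *Hnrnpk* by 0.34 and 0.23. With cytokines *Sp1* fell in both lines, by 0.53 and 0.35, *Nme1* rose by 0.37 in shRNA-NC cells, and *Ncl* rose by 0.39 and *Ctcf* fell by 0.21 in shRNA-*Ddx5* cells. Of all tested genes 33.8% passed with cytokines in shRNA-NC and 27.0% in shRNA-*Ddx5* cells. In the interaction, where 8.21% of all tested genes passed, 0 passed by limma or voom, and 0 had an unadjusted p under 0.05. After quantile normalization the knockdown counts were 1 up and 4 down in medium and 2 up and 3 down with cytokines, and the cytokine counts 0 up and 1 down and 0 up and 2 down in shRNA-NC and shRNA-*Ddx5* cells.

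Next came a list of 51 genes known to be activated by MYC, most of them of the nucleolus, nucleotide synthesis and metabolism. With cytokines, which raised 18.6% and 13.5% of all tested genes in the control and knockdown lines, more of the list rose than fell in both. In shRNA-NC cells 37 rose and 0 fell by limma (43 and 0 at an unadjusted p under 0.05, 38 and 0 by voom), with a median log2 difference of 0.57 against 0.02 over all tested genes, and in shRNA-*Ddx5* cells 29 rose and 0 fell (32 and 1 unadjusted, 29 and 0 by voom), with a median of 0.30 against 0.00014. Both counts depend on the scaling. Under quantile normalization 28 rose and 0 fell in shRNA-NC cells (median 0.35), and 14 rose and 1 fell in shRNA-*Ddx5* cells (median 0.16). By limma without it, 22 of the 51 genes did not pass in the shRNA-*Ddx5* line. *Myc* itself differed by 0.09 in that line. *Hk2*, a hexokinase, had the largest rises, from 6.24 ± 0.766 to 19.2 ± 0.862 FPKM in shRNA-NC (1.48, adjusted p = 4.7e-07, limma) and from 10.1 ± 0.728 to 29.1 ± 2.04 FPKM in shRNA-*Ddx5* cells (1.45, adjusted p = 4.1e-07, limma). The ribosome production genes *Rrp9* and *Rrp12* rose by 1.28 and 1.23 in shRNA-NC and by 0.93 and 0.70 in shRNA-*Ddx5* cells.

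After knockdown in medium, where the *Myc* difference was 0.12, 29 of these 51 genes rose and 4 fell (25.3% and 21.7% of all genes), with a median of 0.31, against 19 and 11 under quantile normalization and 21 and 9 when scaled to the sum of fragments. *Rrp9* (1.03), *Srm* (0.96), the spermidine synthase gene, and *Ppat* (0.85), of purine synthesis, rose most, and *Gnl3*, *Slc19a1*, *Ncl* and *Ccnd2* fell, by 0.53, 0.46, 0.41 and 0.35. With cytokines, where *Myc* was lower, 17 rose and 11 fell (23.5% and 22.1% of all genes), with a median of 0.05, and quantile normalization turned the split to 11 up and 19 down, with 15 each way when scaled to the sum of fragments. *Eif4a1*, a helicase of translation initiation, rose from 241 ± 13.6 to 465 ± 21.0 FPKM (0.95, adjusted p = 1.6e-05, limma), *Bop1* rose by 0.89, and *Gnl3*, of the nucleolus, fell from 180 ± 41.2 to 93.2 ± 4.74 FPKM (-0.92, adjusted p = 0.0007, limma). In the interaction 7 genes passed, all negative, *Slc29a2*, *Ppat*, *Rrp12*, *Aimp2*, *Polr1b*, *Tbrg4* and *Pprc1*, with values from -0.88 to -0.41. Of all tested genes 8.21% passed there, 4.75% negative and 3.46% positive. The length and GC correction gave 1 positive and 13 negative calls. The median interaction of the 51 genes was -0.27, against -0.01 over all tested genes.

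**Figure D4:**
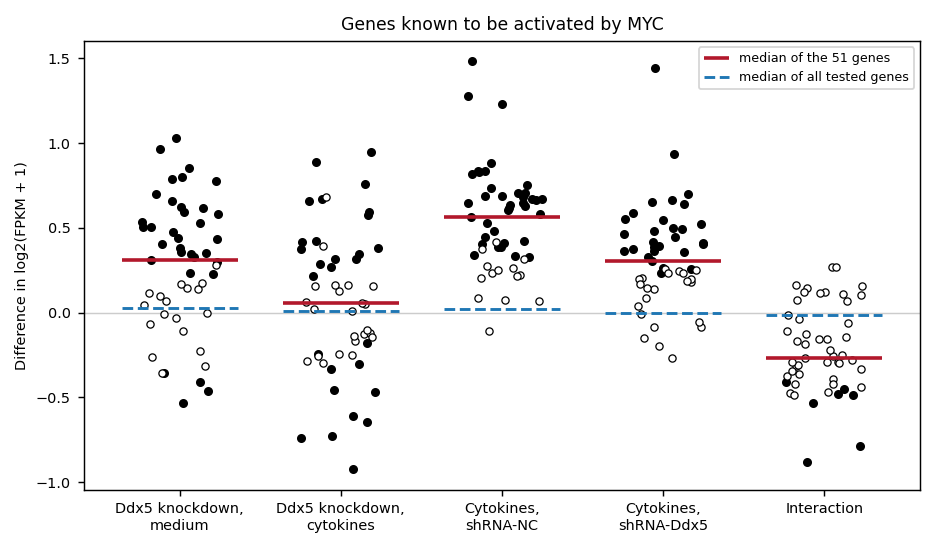
Differences in log2(FPKM + 1) of 51 genes known to be activated by MYC in the 5 comparisons; each point is a gene, filled where the adjusted p of limma was under 0.05, and horizontal jitter has no meaning. The red line is the median of the 51 genes (0.57 for the cytokines in shRNA-NC cells, -0.27 for the interaction) and the dashed blue line the median of all tested genes.

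Of 11 genes known to be repressed by MYC 10 were tested, and they did not move one way. With cytokines in shRNA-NC cells, where *Myc* rose, 6 rose and 3 fell (18.6% and 15.2% of all genes). The stress genes *Gadd45a* and *Gadd45b* rose by 2.35 and 2.13, and *Ndrg1* by 1.90, from 10.5 ± 0.586 to 42.4 ± 8.73 FPKM, while *Cdkn1b*, *Gas1* and *Cdkn2c*, which restrain the cell cycle, fell by 1.25, 0.86 and 0.70. In shRNA-*Ddx5* cells 5 rose and 3 fell (13.5% of all genes each way), with *Gadd45a*, *Gadd45b* and *Ndrg1* up by 2.75, 2.16 and 1.32. After knockdown in medium 2 rose and 5 fell (25.3% and 21.7% of all genes), among them *Gadd45a* (-1.55), *Ndrg1* (-0.83) and *Cdkn2c* (0.80). With cytokines, where *Myc* fell after knockdown, 4 rose and 6 fell (23.5% and 22.1%). *Cdkn1a*, the inhibitor p21, fell from 7.10 ± 0.363 to 1.73 ± 0.283 FPKM (-1.58, adjusted p = 1.1e-06, limma), *Ndrg1* by 1.41 and *Gadd45a* by 1.16, and *Cdkn1b*, *Gas1*, *Cdkn2b* and *Cdkn2c* rose by 0.45, 0.80, 0.91 and 0.98. Past the threshold of the interaction were *Cdkn1a* (-1.14), *Cdkn1b* (0.51) and *Cdkn2b* (0.94), where 3.46% of all genes passed up and 4.75% down. Under quantile normalization 1 rose and 6 fell after knockdown in medium, and 2 were positive and 2 negative in the interaction.

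The genes whose levels followed *Myc* most closely over the 12 libraries were *Klf5*, a growth-related transcription factor (Pearson r = 0.982), *Tsr1*, of ribosome assembly (0.972), *Tpbg* (0.969), *Ccn1*, a matricellular protein (0.969), and *Txnrd1*, thioredoxin reductase (0.968). The most opposite were *Timp3*, an inhibitor of matrix proteases (-0.970), *Cep44* (-0.951), *Acaca* (-0.950), *Selenop* (-0.948) and *Dlgap5* (-0.947). *Klf5* was 1.61 FPKM in the control line and 2.10 FPKM in the knockdown line in medium, and 10.4 and 3.14 FPKM with cytokines, and *Timp3* was 184 and 163 FPKM in medium and 64.2 and 134 FPKM with cytokines. These r values describe log2(FPKM + 1) in libraries that share the 4 groups, and were picked as the extremes among 12368 genes.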

How the data were processed

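The authors sequenced poly(A) RNA from 1 µg of total RNA with paired reads of 150 nt, counted fragments on genes and deposited FPKM for 46731 genes in 12 libraries, which is the unit used here. The submitters' processing notes name HISAT2 2.0.5 and featureCounts 1.5.0-p3, and the methods name featureCounts 1.6.3. The notes name mm10, whereas the coordinates deposited are those of GRCm39, and strandedness is not given in the sources used here. In each library the product of FPKM and gene length came in whole steps for every gene (within 0.01 of a step), which gave the fragments. The library size implied by the step was 1.06 to 1.08 times the fragments on genes in shRNA-NC in medium. It was 0.986 to 1.02 times in shRNA-*Ddx5* in medium. With cytokines it was 0.973 to 1.04 times in shRNA-NC and 0.957 to 0.982 times in shRNA-*Ddx5*.

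Values were compared as log2(FPKM + 1) for 12368 genes at 1 FPKM or more in at least 3 libraries, with limma 3.58.1 in R 4.3.3 (lmFit, contrasts.fit and eBayes with trend, 4 group means, Benjamini-Hochberg adjustment, threshold 0.05). Groups came from the labels. No replicate pair was within sampling noise. The mean chi-square per gene between replicates was 3.97 to 6.01 in shRNA-*Ddx5* with cytokines and 7.56 to 34.9 in the other groups. The fit shares its estimate of the spread over the 4 groups. The study describes the replicates as independent experiments, and the p-values measure the spread between them. The fragment floor covers counting error only.

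The members and lists were chosen with earlier results of these data known. Named were all members, *Ddx5*, lists of up to 5 genes, up to 3 genes a comparison from longer lists (largest change past the threshold without overlap), and the 5 genes most and the 5 least like *Myc*. Further list genes, *Psmc3ip* and *Prelid1* were named after their values were seen. The 9 lists hold 125 genes, with *Ncl* and *Wdr5* in more than 1. The values of 1 list gene are not reported here. Alternatives were a pseudocount of 0.1, no filter, quantile normalization, the replicate block, voom on the fragments, only the libraries of a comparison and each library left out. Scaling to the sum of fragments and a length and GC correction, with and without the block, were chosen after seeing the data.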

Additional observations from a re-analysis of the deposited data

Results flagged for a closer look

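The knockdown effect of 3 network genes was different with cytokines than in medium by the interaction test of limma. For *Myc* it was lower with cytokines by a log2 difference of -0.60 (adjusted p = 0.0135, limma with Benjamini-Hochberg adjustment). The cytokine difference of *Myc* was 0.69 in shRNA-NC and 0.09 in shRNA-*Ddx5* cells. For *Mxd1* the knockdown effect was higher with cytokines by 1.05 (adjusted p = 0.001, limma). For *Mxi1* it was lower with cytokines by -0.47 (adjusted p = 0.0449, limma), a call that several settings lost. Groups of 3 libraries are too small for a test of single outlying libraries.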

How the results depend on the processing

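Over the 9 tested members and 5 comparisons, 22 differences passed the threshold, and 20 of them kept direction and call under each alternative run. The exceptions were *Mxd1* with cytokines in shRNA-NC cells and the interaction of *Mxi1*, which lost the call in 27 fits between them without a change of sign. Of the fits without a library, *Mxd1* kept its call only without replicate 1 or 2 of shRNA-NC or replicate 1 of shRNA-*Ddx5* in medium, and *Mxi1* only without replicate 3 of shRNA-NC or 2 of shRNA-*Ddx5* in medium or 2 of shRNA-NC with cytokines. *Max* passed with cytokines in shRNA-*Ddx5* cells (0.20) without replicate 1 of shRNA-NC with cytokines, and *Mga* in shRNA-NC cells (-0.33) without replicate 2 of shRNA-*Ddx5* in medium. Of the 23 that did not pass, 7 kept sign and call throughout. The number of members called moved by over 1.5 times only for the cytokines in shRNA-*Ddx5* cells, from 3 to 5 in the fit of those 6 libraries alone, where *Max* and *Mxd4* joined. Without each library in turn the counts were 5 to 7 and 6 for the knockdown in medium and with cytokines, 4 to 5 and 3 to 4 for the cytokines in shRNA-NC and shRNA-*Ddx5* cells, and 2 to 3 for the interaction. Values that changed sign were all of differences that did not pass in either fit. Under quantile normalization *Myc* was -0.17 for the knockdown in medium and -0.075 for the cytokines in shRNA-*Ddx5* cells, *Max* -0.066 for the knockdown with cytokines, *Mxi1* -0.041 for the cytokines in shRNA-NC cells and *Mlx* -0.00553 for those in shRNA-*Ddx5* cells. Scaled to the sum of fragments, *Max* was -0.046 and *Mnt* -0.019 for the knockdown with cytokines, *Mxi1* -0.028 for the cytokines in shRNA-NC cells, and *Mga* -0.011 and *Mlx* -0.00592 for those in shRNA-*Ddx5* cells. With the length and GC correction, alone or with the replicate block, *Max* was -0.051 for the knockdown with cytokines and *Mxd3* -0.013 for the interaction. Without a library, the range was -0.30 to 0.064 for *Mxd4* and the knockdown in medium, -0.045 to 0.093 for *Max* and -0.13 to 0.13 for *Mnt* with cytokines, -0.027 to 0.10 for *Mxi1* and the cytokines in shRNA-NC cells, -0.0067 to 0.15 for *Mnt*, -0.17 to 0.25 for *Mga* and -0.042 to 0.17 for *Mlx* and those in shRNA-*Ddx5* cells, and -0.13 to 0.15 for *Mxd3* and the interaction. The cause was not tested. Residuals of the 2 lines in medium correlated by 0.448, 0.0425 and 0.313 for the same replicate number, on average 0.268, against -0.143 for other numbers. With cytokines they correlated by -0.0201, 0.121 and -0.0855, on average 0.00508 against -0.00231. Between medium and cytokines the averages were -0.178 against 0.0998 in shRNA-NC and -0.0873 against 0.0436 in shRNA-*Ddx5* cells. Residuals cancel out within a group, so the average for other numbers follows largely from that for the same number and is no independent reference. The same-number average was thus positive between the lines in medium, small with cytokines and negative between medium and cytokines. With the number as a replicate block the call of *Mxd1* with cytokines in shRNA-NC cells (-0.28) and the interaction of *Mxi1* (-0.47) were lost, and the members called were 5, 6, 4, 3 and 2 in the order above. Voom on the fragments called 5966, 5731, 4390, 3419 and 855 genes, against 5817, 5645, 4181, 3344 and 1016.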
